A study of Macaca mulatta with 12 samples.

Results

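The genes described here encode subunits of the oxidative phosphorylation system, together with a few assembly factors and relatives whose symbols share the same stems. They were taken from the array's annotation as every gene whose symbol begins with NDUFA, NDUFB, NDUFC, NDUFS, NDUFV, UQCR, COX4 to COX8 or ATP5, or is SDHA, SDHB, SDHC or SDHD, with at least 1 probe set that carries no other symbol. The rule found 64 of the 14132 genes that could be named in this way. They comprise 26 genes grouped here under complex I, 6 complex I assembly factors, 3 genes of complex II, 6 of complex III, 8 of complex IV and 15 of complex V. Of the 64, 55 are counted here as subunits. The other 9 are the assembly factors NDUFAF1, NDUFAF2, NDUFAF3, NDUFAF5, NDUFAF6 and NDUFAF7, the ATP synthase inhibitor ATP5IF1, the NDUFA4 relative NDUFA4L2, and ATP5G1, an older symbol for the subunit gene ATP5MC1 that the annotation attaches to separate entries. ATP5G1 enters the counts of the 64 genes and of complex V as a gene of its own, although it may be the same gene as ATP5MC1. Each gene is represented by the brightest of its probe sets, judged by the mean of all 12 arrays, and its level is the deposited log2 signal of that probe set. Levels of different genes are not set against each other, because probe sets differ in how strongly they bind.

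The series measured RNA of rhesus macaque (Macaca mulatta) cells on Affymetrix arrays, with 3 arrays for each of 4 kinds of cells. The fibroblasts came from a skin biopsy of a 9 year old male. ORMES-9 is a female embryonic stem (ES) cell line that the series design and sample descriptions call a homozygous parthenote, carrying only maternal alleles in identical copies, while its source field names a blastocyst from in vitro fertilization (IVF). rPESC-2 is a female ES line from a parthenogenetic blastocyst, heterozygous because the maternal alleles it holds differ, and ORMES-22 is a female biparental ES line from an IVF blastocyst. All cells grew in 5% O2, 3% CO2 and 92% N2, the ES lines with 15% fetal bovine serum on inactivated mouse embryonic fibroblast feeders and the skin fibroblasts with 10% serum and no stated feeder. ES cell RNA came from undifferentiated colonies. Replicates A, B and C of ORMES-9 were at passages 13, 14 and 16, those of rPESC-2 at passages 16, 10 and 16, and those of ORMES-22 at passages 18, 21 and 19. Each ES group is a single line, so tests between lines measure the spread between cultures of these lines and not between independent derivations. The same holds for tests of fibroblasts against ES lines, whose SE and p values come from the spread between replicates within groups. Spread between donors or between the ES lines does not enter them.

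Oxidative phosphorylation makes ATP in the inner mitochondrial membrane. Complexes I and II pass electrons from NADH and succinate to ubiquinone, complex III hands them to cytochrome c, complex IV passes them to oxygen, and complex V, the ATP synthase, uses the proton gradient that complexes I, III and IV build. Pluripotent stem cells are known for relying largely on glycolysis, and some subunits of complexes IV and V exist as isoforms from separate genes that are used in different tissues.

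Array medians lay between 5.01 and 5.10 on the log2 scale. The 42 bacterial poly-A control probe sets had a median of 3.75 and a 90th percentile of 4.26, taken here as the background level, and no group mean of any of the 64 genes fell under it. ORMES-22 replicate A stood apart from the other 2 arrays of its line, with Pearson correlations across all probe sets of 0.984 and 0.986, against 0.993 to 0.997 between all other replicate pairs. None of the 64 genes differed by as much as 2-fold between that array and the mean of ORMES-22 replicates B and C. Counts of called genes among the 64 are also given below without it. Pluripotency markers summed to between 49.4 and 50.6 in fibroblasts over the 10 measured of 12 listed, against 96.5 to 102.4 over the 9 ES arrays, and fibroblast markers summed to between 138.5 and 139.3 over 13 of 14, against 88.0 to 101.8. SOX2 and LIN28B were under background in the fibroblasts, and LUM, TWIST2 and PRRX1 were under it in every ES line. Not all markers went the same way. Against the ES lines, 8 of the 10 pluripotency markers were called lower in fibroblasts (adjusted p under 0.05 by limma) and 1 higher, by 1.32. Of the 13 fibroblast markers, 11 were called higher and 1 lower. Among all genes 25.5% were called higher and 44.9% lower.

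Skin fibroblasts differed from the ES lines at 44 of the 64 oxidative phosphorylation genes, a share of 68.8% near the 70.4% called among all genes, and the directions differed between complexes. All 3 measured genes of complex II and all 6 of complex III were higher in fibroblasts. The genes grouped here under complex I were split, with 7 higher and 11 lower. Of the 44 genes 25 were higher and 19 lower, and 7 of them changed by 2-fold or more. The largest differences on the brightest probe sets were those of NDUFS7, 5.52-fold lower there but called higher by 0.42 on the log2 scale on a second probe set, and of the complex V gene ATP5MJ, 3.23-fold higher there but not called on a second, dimmer probe set (0.13).

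The contrast set the 3 fibroblast arrays against the mean of the 3 ES lines, and a gene was called where limma's adjusted p, over all probe sets of the array, was under 0.05. Among all 14132 genes 70.4% were called in this comparison, 25.5% higher and 44.9% lower in fibroblasts, so a call by itself was common. Of the 64 genes, 39.1% were called higher and 29.7% lower. The median difference was 0.06 over the 64 genes and -0.15 over all genes. Among the 56 whose mean level was at least 8, 39.3% were called higher and 28.6% lower, against 29.9% and 50.7% of the 4993 genes that bright. At 2-fold or more the background was 27.4%, against 7 of the 64. Without ORMES-22 replicate A there were 27 higher and 19 lower calls, with 8 genes of complex I and 4 of complex V higher. Quantile normalization of the deposited values gave 22 higher and 25 lower calls and a median of -0.07, so the direction of the median over the 64 genes turned with the scaling. In bulk samples such as these, fewer cells of a type and less RNA per cell cannot be told apart.

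**Figure D1:**
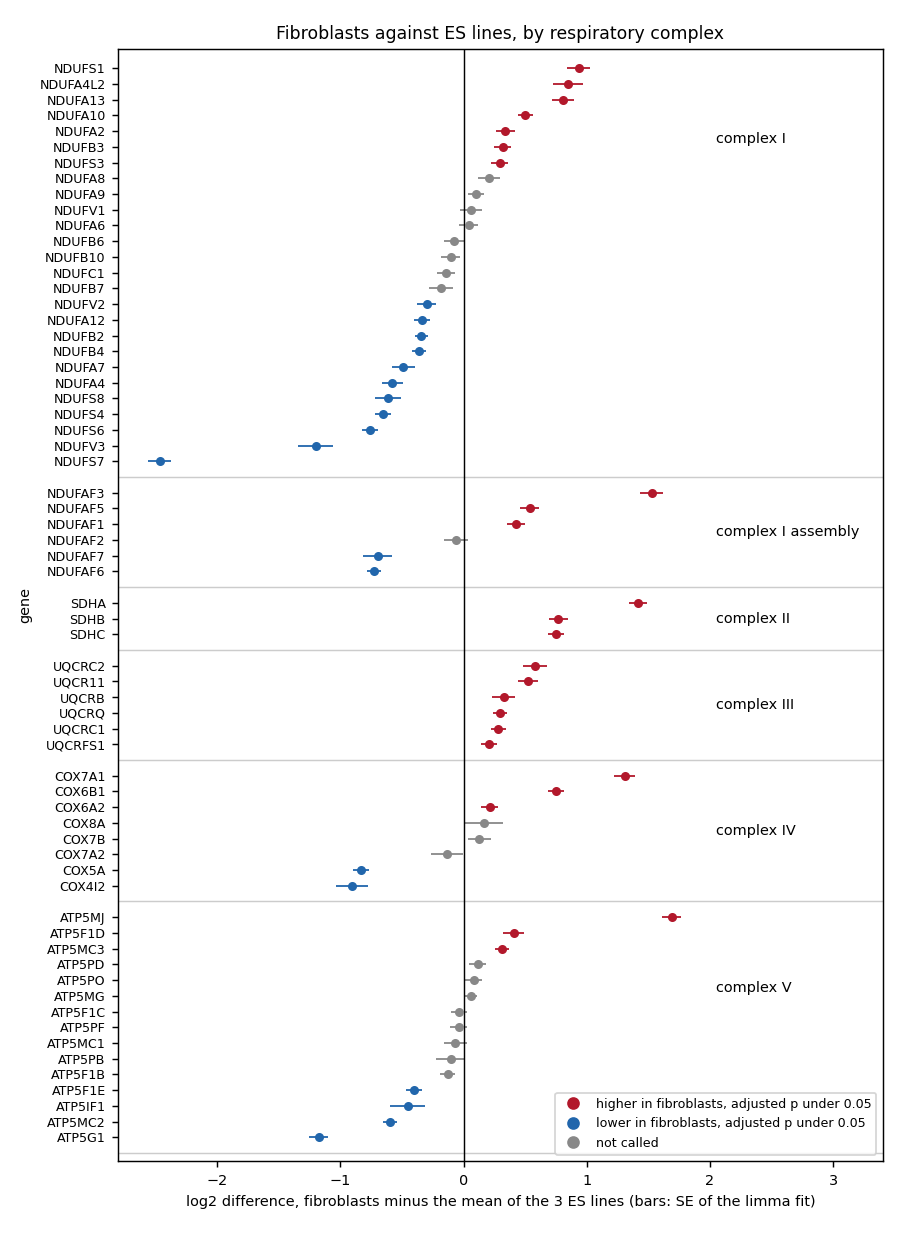
Difference in log2 signal, fibroblasts minus the mean of the 3 ES lines, for the 64 genes ordered by complex, with bars of 1 SE of the limma fit. Red points are genes called higher in fibroblasts, blue points genes called lower and grey points genes not called; all 3 genes of complex II and all 6 of complex III are red.

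Complex II, the succinate dehydrogenase that also serves the citric acid cycle, had the most uniform difference. SDHA, the flavoprotein that oxidizes succinate, had signals of 11.07, 10.95 and 11.04 in fibroblasts, and its 9 ES arrays ran between 9.41 and 9.82 with a median of 9.58. Its groups were separated by more than a full log2 unit, and it was 2.67-fold higher in fibroblasts (log2 difference 1.42, SE 0.07, adjusted p = 5.6e-09 by limma). SDHB, the iron-sulfur subunit, read 10.95, 10.83 and 10.84 in fibroblasts and between 9.90 and 10.39 over the ES arrays (median 10.07). SDHC, which anchors the enzyme in the membrane, read 10.17, 9.94 and 10.02 in fibroblasts and between 9.11 and 9.52 over the ES arrays (median 9.30). Neither gene overlapped between fibroblasts and ES cells, and their log2 differences were 0.77 for SDHB and 0.75 for SDHC (SE 0.08 and 0.07). The median over the complex was 0.77, and 0.64 after quantile normalization, with all 3 genes still called.

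Complex III was shifted the same way by less. UQCRC2, a core protein of the complex, had the largest difference in it: 11.28, 11.04 and 11.14 in fibroblasts, against 10.25 to 10.74 over the ES arrays with a median of 10.60 (log2 difference 0.58, SE 0.10). UQCR11, a small subunit, followed at 0.52 (SE 0.08), although a second, dimmer probe set of it was called the other way at -0.29. UQCRQ, the ubiquinone-binding protein, read 12.33, 12.31 and 12.34 in fibroblasts and between 11.92 and 12.16 over the ES arrays, a small difference of 0.30 without overlap. UQCRC1, the other core protein, differed by 0.28, and UQCRFS1, the Rieske iron-sulfur protein, by 0.21. The remaining gene, UQCRB, overlapped between the groups: its fibroblast values of 6.58, 6.41 and 6.58 lay inside the ES range of 5.88 to 6.78. Its call (0.33, adjusted p = 0.009 by limma) rested on rPESC-2 and ORMES-22, since against ORMES-9 alone the difference was -0.02. The median over complex III was 0.31, and 4 of the 6 calls were left after quantile normalization.

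Complex I, with a median difference of -0.12, held genes on both sides. NDUFS7, an iron-sulfur subunit that hands electrons to ubiquinone, had 8.55, 8.54 and 8.36 in fibroblasts, against 10.61 to 11.23 over the ES arrays with a median of 10.94. Every fibroblast array was at least 2 log2 units below every ES array on this probe set (log2 difference -2.46, SE 0.09, adjusted p = 3.2e-10 by limma). A second NDUFS7 probe set of similar brightness was instead higher in fibroblasts, at 10.62 ± 0.05 (SD, n = 3), with 10.12 ± 0.12 in ORMES-9, 10.21 ± 0.06 in rPESC-2 and 10.27 ± 0.27 in ORMES-22, a called difference of 0.42. The direction for NDUFS7 therefore depends on the probe set. NDUFS6, an accessory subunit of the matrix arm, was lower on its brightest probe set (-0.76, SE 0.06) and higher on its other 2 (0.65 and 0.91).

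NDUFV3, a small accessory subunit beside the NADH-oxidizing site, read 5.78, 5.60 and 5.83 in fibroblasts, all below the ES range of 6.37 to 7.61 (median 6.88). It was 2.30-fold lower in fibroblasts (log2 difference -1.20, SE 0.15), while a second, dimmer probe set gave 0.02 and was not called. In the other direction NDUFS1, the largest iron-sulfur subunit, read 11.25, 11.11 and 11.11 in fibroblasts, above the ES range of 9.70 to 10.61 (median 10.22), a difference of 0.93 (SE 0.09). NDUFA13, also known as GRIM-19, was 0.81 higher and NDUFA10 was 0.50 higher in fibroblasts. NDUFB4, of the membrane arm, had a log2 difference of -0.36, with 12.16, 12.19 and 12.20 in fibroblasts and 12.41 to 12.73 over the ES arrays. Higher fibroblast values were also called for NDUFA2, NDUFB3 and NDUFS3 (0.34, 0.32 and 0.29), and lower ones for NDUFS4, NDUFS8, NDUFA7, NDUFB2, NDUFA12 and NDUFV2, between -0.65 and -0.30. The NDUFS3 call was lost after quantile normalization (0.17, adjusted p = 0.0658 by limma). NDUFS3 values overlapped between fibroblasts and ES cells, and it was not called against ORMES-9 alone (0.06) or ORMES-22 alone (0.13). NDUFA12 was not called against ORMES-22 alone (-0.17).

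NDUFA4 and its relative NDUFA4L2 moved in opposite directions. NDUFA4, named for complex I and since assigned to complex IV, had 11.24, 11.34 and 11.31 in fibroblasts, below the ES range of 11.58 to 12.12, a difference of -0.58 (SE 0.08). NDUFA4L2, known as a hypoxia-induced relative in human and mouse cells, had 7.08, 6.51 and 6.80 in fibroblasts, above the ES range of 5.66 to 6.20, a difference of 0.85 (SE 0.12). Both were without overlap between fibroblasts and ES cells. In the counts both are grouped under complex I, with NDUFA4 among its 11 lower genes and NDUFA4L2 among its 7 higher genes.

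Of the 6 complex I assembly factors, which help build the enzyme but are not part of it, 3 were higher and 2 lower in fibroblasts. NDUFAF3 had 10.06, 9.87 and 10.07 in fibroblasts, against 8.07 to 8.72 over the ES arrays with a median of 8.51. All fibroblast arrays were above all ES arrays, and the gene was 2.88-fold higher (log2 difference 1.52, SE 0.09, adjusted p = 2.8e-08 by limma). NDUFAF5 was higher by 0.54, with a median difference of 0.18 over the 6 factors. NDUFAF6 and NDUFAF7 were lower, by log2 differences of -0.73 (SE 0.06) and -0.70 (SE 0.12). NDUFAF1 was called higher (0.43), but its 3 ES lines differed from each other and its fibroblast values of 9.81, 9.61 and 9.54 overlapped those of ORMES-9. Against ORMES-9 alone its difference was -0.09.

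Complex IV, cytochrome c oxidase, had 3 genes higher, 2 lower and 3 not called. COX7A1, the isoform used in heart and skeletal muscle, had 10.39, 10.41 and 10.52 in fibroblasts, against 8.55 to 9.65 over the ES arrays with a median of 9.28. Its fibroblast arrays were all above its ES arrays, by 2.47-fold in the mean (log2 difference 1.31, SE 0.09, adjusted p = 4.7e-08 by limma). Its partner isoform COX7A2, used more widely, was not called on its brightest probe set (-0.13, adjusted p = 0.40 by limma), while a second COX7A2 probe set was 1.66 higher in fibroblasts. COX6B1, which faces the intermembrane space, was 0.75 higher, with 12.79, 12.67 and 12.68 in fibroblasts and 11.84 to 12.11 over the ES arrays. COX6A2, another heart and muscle isoform, was called higher by only 0.21, and leaving out fibroblast replicate B or C ended that call (adjusted p = 0.0856 and 0.0732 by limma).

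The lower genes of complex IV were COX4I2 and COX5A. COX4I2, the lung isoform of the largest nuclear-encoded subunit, had 5.22, 5.48 and 5.38 in fibroblasts, below the ES arrays, whose median was 6.19 and highest value 6.83 (log2 difference -0.90, SE 0.13). COX5A, a subunit facing the matrix, had 10.99, 10.95 and 11.04 in fibroblasts, below the ES range of 11.71 to 11.94 (log2 difference -0.83, SE 0.07). COX8A and COX7B gave 0.16 and 0.13 with adjusted p of 0.40 and 0.26 by limma. The median over complex IV was 0.15, and -0.02 after quantile normalization. Muscle markers summed over 4 of the 7 listed were lower in fibroblasts, at 19.6 to 20.5 against 26.9 to 30.4 over the ES arrays, and their part in the COX7A1 and COX6A2 values was not tested.

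**Figure D2:**
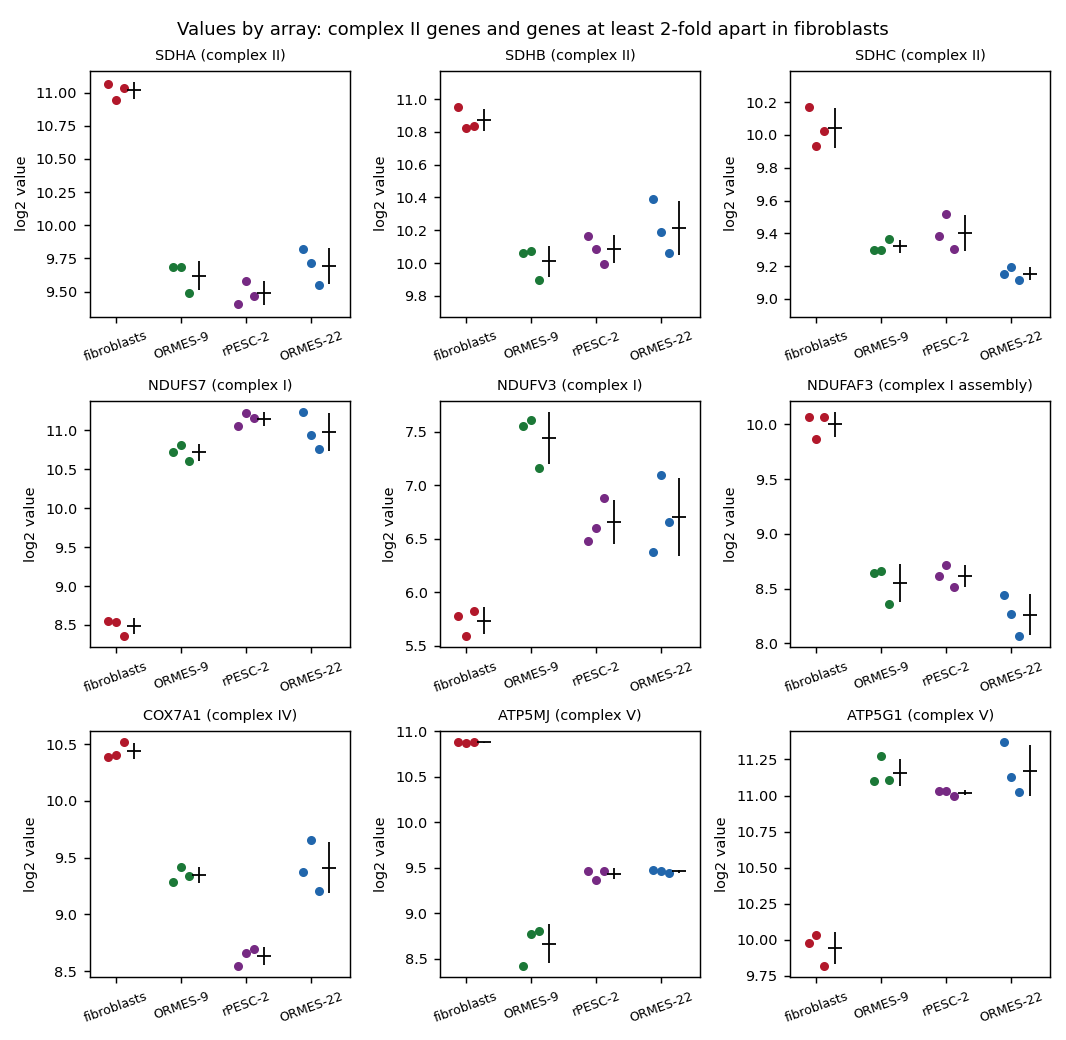
Log2 signal on each array for the genes of complex II and those that differed by at least 2-fold between fibroblasts and the ES lines, with 3 points per group and the group mean with its SD beside them. For NDUFAF3, SDHA, COX7A1 and ATP5MJ the 3 fibroblast points lie above all 9 ES points, and for NDUFS7, NDUFV3 and ATP5G1 they lie below them.

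Complex V, the ATP synthase, had the smallest share of calls, with 3 genes higher and 4 lower of 15 and a median of -0.04. ATP5MJ, a small proteolipid subunit of the membrane sector, had 10.88 on each of the 3 fibroblast arrays, against 8.43 to 9.48 over the ES arrays with a median of 9.45. No ES array came within a log2 unit of the fibroblasts (log2 difference 1.69, SE 0.08, adjusted p = 1.5e-09 by limma). ATP5F1D, the delta subunit of the central stalk, was 0.41 higher, while ATP5F1E, the epsilon subunit, gave -0.40 on its brightest probe set and 2.45 on a dimmer one, both called. ATP5IF1, which blocks the enzyme when it runs in reverse, was lower in fibroblasts by a log2 difference of -0.45, with overlapping values. ATP5F1B, which carries the catalytic sites, gave -0.13 and was not called (adjusted p = 0.074 by limma). ATP5MG and ATP5PB, the brightest and the dimmest probe sets of the complex, gave 0.06 and -0.10 and were not called either.

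The genes for the c subunit, which forms the rotating ring, went separate ways. ATP5MC3 had 12.85, 12.87 and 12.94 in fibroblasts, above the ES range of 12.50 to 12.73 (difference 0.31, SE 0.06). ATP5MC2 had 7.31, 7.34 and 7.20, below the ES range of 7.77 to 7.93 (difference -0.60, SE 0.05). ATP5MC1 overlapped and was not called (-0.07, SE 0.09). The entry annotated as ATP5G1 was 2.26-fold lower in fibroblasts, with 9.98, 10.03 and 9.82, against a median of 11.10 and a highest value of 11.37 over the ES arrays, without overlap (log2 difference -1.17, SE 0.08), but a second probe set with that symbol was 0.32 higher. Since RefSeq lists ATP5G1 as a synonym of ATP5MC1, and these genes have near-identical copies, what the ATP5G1 probe sets bind is uncertain.

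**Figure D3:**
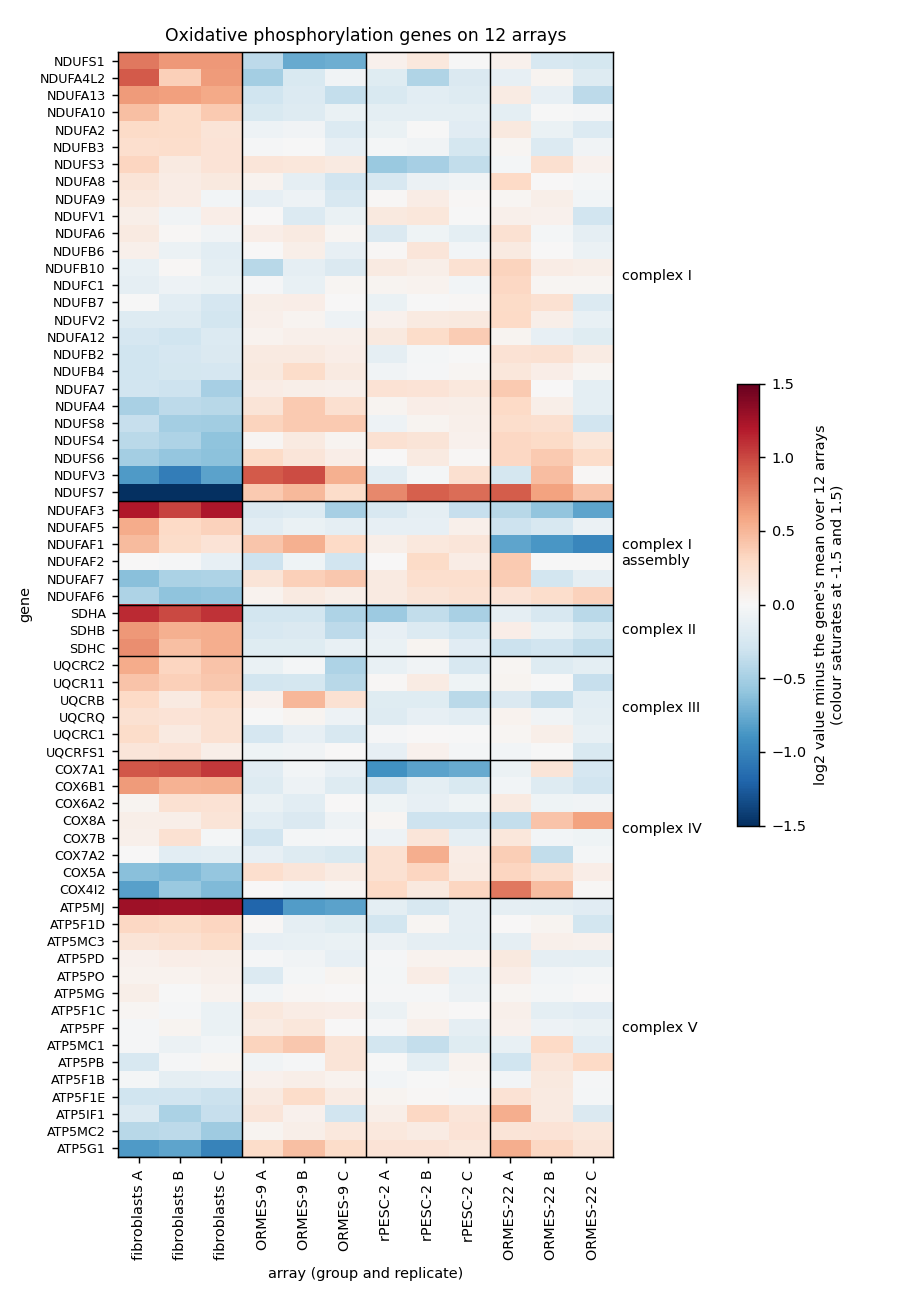
Log2 signal of the 64 genes on the 12 arrays, each gene centred on its mean over all arrays, with rows grouped by complex and columns ordered as fibroblasts, ORMES-9, rPESC-2 and ORMES-22. The rows of SDHA, SDHB and SDHC are highest in the fibroblast columns, and complex I holds both rows that are high and rows that are low in fibroblasts.

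Between the ES lines 4 to 8 of the 64 oxidative phosphorylation genes were called in each comparison, 6.25% to 12.5%, against 6.65% to 8.4% of all genes. The gene that reached 2-fold was NDUFAF1, a factor of complex I assembly, which was higher in both parthenogenetic lines than in biparental ORMES-22, by 2.45-fold in ORMES-9 and 2.03-fold in rPESC-2. COX7A1 and NDUFS3 were low in rPESC-2, and ATP5MJ and NDUFS1 were low in ORMES-9. The most calls within a complex between lines were 4 of the 26 genes of complex I, in ORMES-9 against rPESC-2. That was 15.4%, against 7.7% of all genes.

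In rPESC-2 against ORMES-22, 4 of the 64 genes were called, 2 higher and 2 lower, where the background over all genes was 6.65% (3.72% higher and 2.93% lower). At 2-fold or more there was 1 gene, against a background of 1.69%. The median difference over the 64 genes was -0.04, and -0.03 over all genes. In ORMES-9 against ORMES-22, 6 genes were called, 3 higher and 3 lower, against 8.4% of all genes (5.42% higher and 2.98% lower), and 1 reached 2-fold, against 2.29%. In ORMES-9 against rPESC-2, 8 genes were called, 5 higher and 3 lower, against 7.7% of all genes (4.56% higher and 3.13% lower), and none reached 2-fold, against 1.63%. These shares, 6.25%, 9.38% and 12.5% of the 64 genes, lay near their backgrounds. With a raw p under 0.05 by limma the counts were 10, 18 and 20 of the 64. Among all 14132 genes they were 3646, 3386 and 3045, so such a p was common in general. The 3 comparisons share arrays, so a gene that is off in 1 line appears in 2 of them. Without ORMES-22 replicate A the calls numbered 8, 7 and 12, so that array decided much of the first count. Without ORMES-9 replicate B the calls of ORMES-9 numbered 3 against ORMES-22 and 5 against rPESC-2.

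NDUFAF1 had 9.75, 9.87 and 9.63 in ORMES-9, 9.42, 9.49 and 9.51 in rPESC-2, and 8.54, 8.46 and 8.36 in ORMES-22. Every parthenogenetic array was above every ORMES-22 array, and the fibroblasts overlapped ORMES-9. The log2 difference was 1.29 in ORMES-9 against ORMES-22 (adjusted p = 5.7e-06 by limma). In rPESC-2 against ORMES-22 it was 1.02 (adjusted p = 5.8e-05 by limma), each with an SE of 0.09. ORMES-9 and rPESC-2 differed by 0.27 (adjusted p = 0.14 by limma). The other 5 assembly factors were not called between any ES lines.

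**Figure D4:**
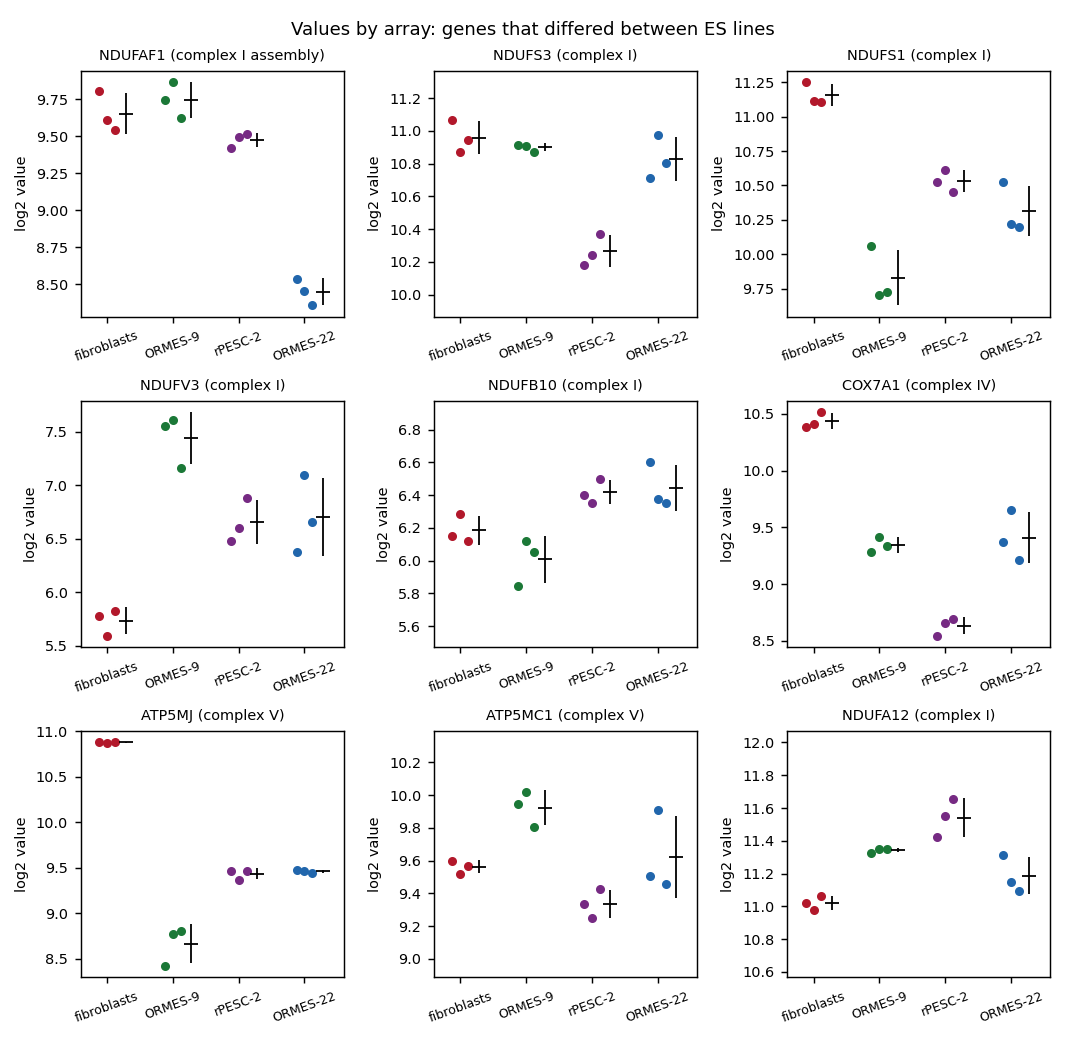
Log2 signal on each array for genes called between ES lines, with 3 points per group and the group mean with its SD beside them. NDUFAF1 is lowest in ORMES-22, COX7A1 and NDUFS3 are lowest in rPESC-2, and ATP5MJ is lowest in ORMES-9.

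COX7A1 set rPESC-2 apart from both other lines. It had 9.28, 9.42 and 9.34 in ORMES-9, 8.55, 8.66 and 8.70 in rPESC-2, and 9.37, 9.65 and 9.21 in ORMES-22. The rPESC-2 arrays were below all others, while ORMES-9 and ORMES-22 overlapped. It was 1.71-fold lower in rPESC-2 than in ORMES-22 (log2 difference -0.78, SE 0.10, adjusted p = 0.0013 by limma) and 1.64-fold higher in ORMES-9 than in rPESC-2 (log2 difference 0.71). NDUFS3, a core subunit of the arm of complex I that faces the matrix, was also lowest in rPESC-2, with 10.92, 10.91 and 10.87 in ORMES-9, 10.18, 10.24 and 10.37 in rPESC-2 and 10.71, 10.97 and 10.81 in ORMES-22. Its differences were -0.56 for rPESC-2 against ORMES-22 (SE 0.09, adjusted p = 0.0031 by limma) and 0.63 for ORMES-9 against rPESC-2 (adjusted p = 0.0011 by limma). In a fit of only rPESC-2 and ORMES-22 the first of these calls was lost (adjusted p = 0.0567).

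NDUFA12, an accessory subunit, was the other gene called higher in rPESC-2 than in ORMES-22, with 11.42, 11.55 and 11.66 against 11.32, 11.15 and 11.10 (log2 difference 0.36, SE 0.08, adjusted p = 0.029 by limma). The groups did not overlap, but the call did not survive a fit of only these groups or the loss of any of 4 single arrays. ATP5MC1 separated the parthenogenetic lines, with 9.94, 10.02 and 9.81 in ORMES-9 and 9.33, 9.25 and 9.42 in rPESC-2. This was a 1.5-fold difference (log2 difference 0.59, SE 0.11), seen also on its second probe set (0.67), and the call ended without ORMES-9 replicate B (adjusted p = 0.0515 by limma).

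ATP5MJ was low in ORMES-9 on its brightest probe set, with 8.43, 8.77 and 8.81, against 9.47, 9.37 and 9.47 in rPESC-2 and 9.48, 9.46 and 9.45 in ORMES-22. ORMES-9 was below both other lines, which overlapped, and the log2 differences were -0.79 against ORMES-22 (adjusted p = 0.00032 by limma) and -0.77 against rPESC-2 (adjusted p = 0.00049 by limma). A second, dimmer ATP5MJ probe set differed in neither comparison by a call, at -0.0025 and -0.011. NDUFS1 had 10.06, 9.70 and 9.72 in ORMES-9, 10.52, 10.61 and 10.46 in rPESC-2 and 10.52, 10.22 and 10.20 in ORMES-22. It was lower in ORMES-9 than in rPESC-2 by a log2 difference of -0.70 (adjusted p = 0.0038 by limma) and than in ORMES-22 by -0.48 (adjusted p = 0.029 by limma).

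The remaining calls in ORMES-9 were of dim probe sets. NDUFV3 had 7.55, 7.61 and 7.16 in ORMES-9, 6.48, 6.60 and 6.88 in rPESC-2 and 6.37, 7.09 and 6.66 in ORMES-22, and was higher in ORMES-9 by 0.73 against ORMES-22 and 0.79 against rPESC-2. NDUFB10, of the membrane arm, had 5.85, 6.12 and 6.05 in ORMES-9, 6.40, 6.35 and 6.50 in rPESC-2 and 6.60, 6.38 and 6.35 in ORMES-22, and was lower in ORMES-9, with log2 differences of -0.44 against ORMES-22 and -0.41 against rPESC-2. ORMES-9 did not overlap either line at these genes, but their adjusted p values by limma lay between 0.019 and 0.031. A second, dimmer probe set of each gene was called in neither comparison. It gave -0.15 against ORMES-22 and 0.04 against rPESC-2 for NDUFV3, and -0.06 and -0.13 for NDUFB10. In a fit of only ORMES-9 and ORMES-22 the calls of NDUFS1, NDUFV3, NDUFB10 and UQCRB were lost, with adjusted p of 0.165, 0.165, 0.119 and 0.116. Against rPESC-2 the NDUFB10 call was lost without any 1 of 5 arrays (ORMES-9 replicates A and C and all 3 of rPESC-2, adjusted p of 0.0617 to 0.11 by limma), with the replicate block and with trended moderation. The NDUFV3 call against rPESC-2 was lost without any 1 of 4 arrays (replicates A and B of either line, adjusted p of 0.0871 to 0.108 by limma) and with the mean of its probe sets. Against ORMES-22 single arrays also ended the calls of NDUFV3 (ORMES-9 or ORMES-22 replicates, adjusted p of 0.052 to 0.124 by limma), NDUFS1 (0.0509 to 0.118) and NDUFB10 (0.0861).

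UQCRB gave opposite answers on different probe sets. On its brightest over the 12 arrays it had 6.35, 6.78 and 6.50 in ORMES-9, 6.09, 6.10 and 5.88 in rPESC-2 and 6.06, 5.92 and 6.12 in ORMES-22, and was higher in ORMES-9 by 0.51 against ORMES-22 and 0.52 against rPESC-2. Leaving out single arrays ended these calls too, ORMES-9 replicate B in both comparisons (adjusted p = 0.0753 against ORMES-22 and 0.0776 against rPESC-2 by limma), ORMES-9 replicate C and rPESC-2 replicate C against rPESC-2 (0.0513 and 0.0737) and ORMES-22 replicate B against ORMES-22 (0.0745). On another probe set it had 3.76, 3.85 and 3.70 in ORMES-9 and 3.68, 3.88 and 3.83 in rPESC-2, all under the background level of 4.26, against 5.66, 5.48 and 5.96 in ORMES-22. That probe set read 7.70, 7.49 and 7.57 in fibroblasts. Both parthenogenetic lines were thus called lower than ORMES-22 there, each at least 2.72-fold, with the background level in place of their values. A further UQCRB probe set, with a mean of 5.47 over the 12 arrays, went the way of the brightest. It was called higher in ORMES-9 than in ORMES-22 (0.79, adjusted p = 0.0027 by limma). Against rPESC-2 it was 0.42 higher in ORMES-9 and not called.

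**Figure D5:**
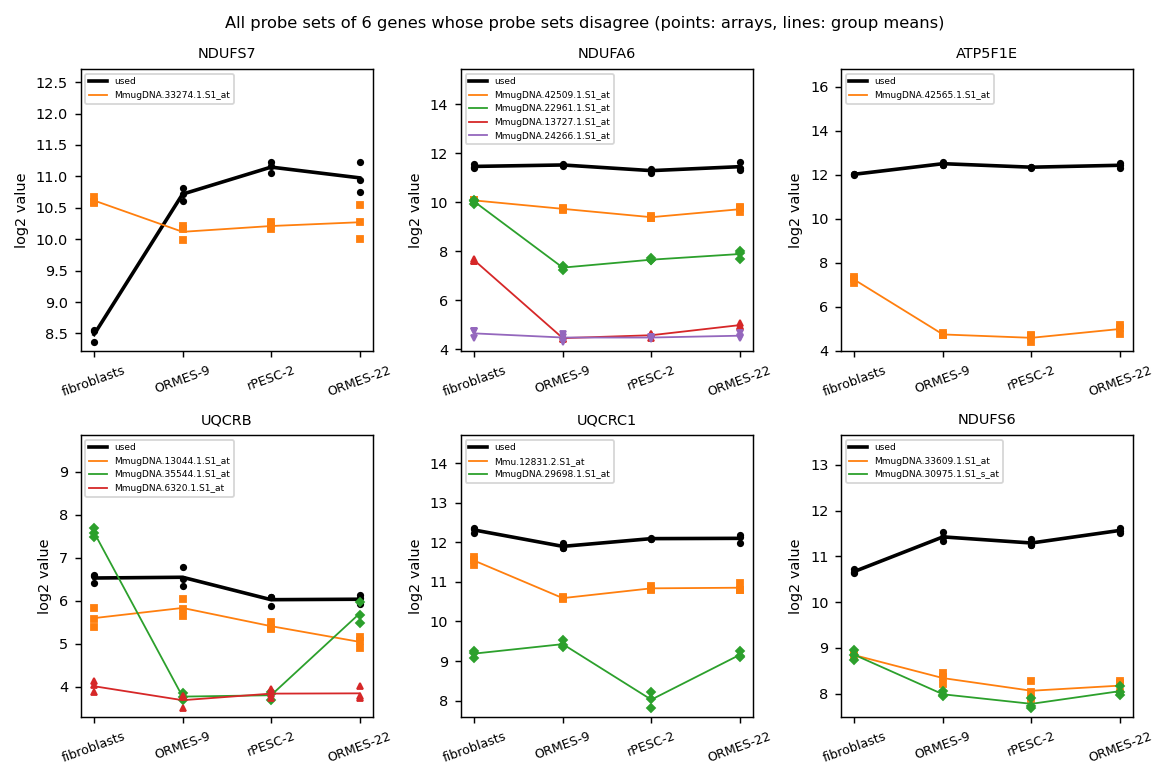
Log2 signal by group on every probe set of 6 genes whose probe sets disagree, with points for single arrays, lines through group means and the brightest probe set in black. The brightest NDUFS7 probe set is lower in fibroblasts than in the ES lines and the other is higher, and 1 probe set of UQCRB drops under 4.26 in ORMES-9 and rPESC-2.

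Such disagreement was not rare. Of the 64 genes, 31 had several probe sets, and 37 further probe sets of 28 genes had a mean over the 12 arrays above the background level, though some lay under it in single groups. Of these 28 genes, 19 were called between fibroblasts and ES cells on the brightest probe set. Among the 19, 10 had another probe set called the same way. Another probe set was called the other way in 5, ATP5F1E, ATP5G1, NDUFS6, NDUFS7 and UQCR11. A further 6 genes were not called on the brightest probe set but on another. NDUFA6, picked out here after its values were seen, is an accessory subunit with a difference of 0.04 on its brightest probe set and of 0.46, 2.40 and 2.96 on 3 others. A further, dimmer NDUFA6 probe set gave 0.14 and was not called. UQCRC1, picked out in the same way, was at 8.02 ± 0.21 (SD, n = 3) in rPESC-2 on another probe set, against 9.16 ± 0.09 in ORMES-22. On its brightest probe set these lines differed by -0.01, and on a further probe set by -0.02.

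Marker genes also differed between the ES lines. Endoderm markers, 6 measured of 7, summed to between 43.6 and 46.6 in ORMES-9 and 47.0 and 48.1 in rPESC-2, against 35.7 and 39.1 in ORMES-22. Of the 6, 3 in ORMES-9 and 4 in rPESC-2 were called higher than in ORMES-22. These were 50.0% and 66.7%, against 5.42% and 3.72% of all genes. Fibroblast markers summed to between 90.6 and 93.9 in ORMES-9 and 88.0 and 93.9 in rPESC-2, against 99.2 and 101.8 in ORMES-22, with 4 and 5 of 13 called lower. These were 30.8% and 38.5%, against 2.98% and 2.93% of all genes. The part of these markers in the differences of NDUFAF1, COX7A1, NDUFS3 and the other genes between lines was not tested.

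Genes around the respiratory chain were also compared, each on the brightest of its probe sets only. Any other probe sets of these genes were not compared, so their differences may depend on the probe set, as that of NDUFS7 did. Of 29 measured genes for other chain components and assembly factors, 13 (44.8%) were higher and 12 (41.4%) lower in fibroblasts than in ES cells, against 25.5% and 44.9% of all genes. HIGD1A, which associates with respiratory complexes under low oxygen, had 11.46, 11.52 and 11.53 in fibroblasts, 9.67, 9.58 and 9.51 in ORMES-9, 9.52, 9.15 and 9.26 in rPESC-2, and 10.71, 10.70 and 11.07 in ORMES-22. It was highest in fibroblasts (log2 difference 1.59, SE 0.09) and lower in both parthenogenetic lines than in ORMES-22, with log2 differences of -1.24 in ORMES-9 and -1.52 in rPESC-2. LYRM7, a maturation factor of the Rieske protein, NUBPL, which inserts iron-sulfur clusters into complex I, and COX18, which inserts a complex IV subunit into the membrane, were higher in fibroblasts by 1.38, 1.16 and 1.10.

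In ORMES-9 against ORMES-22, 4 of these 29 were called higher and 2 lower (20.7% in all, against 8.4% of all genes). In rPESC-2 against ORMES-22 the counts were 5 and 2 (24.1%, against 6.65%), and in ORMES-9 against rPESC-2 they were 2 and 2 (13.8%, against 7.7%). SDHAF4, an assembly factor of complex II, had 6.07, 6.03 and 5.93 in ORMES-9 and 5.79, 5.99 and 5.51 in rPESC-2, against 5.30, 4.41 and 4.30 in ORMES-22. It was higher than in ORMES-22 by 1.34 in ORMES-9 and 1.09 in rPESC-2, with ORMES-22 replicate A nearest to the other lines. UQCC1 and TTC19, both needed to assemble complex III, went opposite ways in ORMES-9: UQCC1 was lower, with log2 differences of -0.82 against ORMES-22 and -1.12 against rPESC-2, and TTC19 was higher by 1.00 and 0.81. COX11, a copper chaperone for complex IV, was higher by 0.74 in rPESC-2 than in ORMES-22 and lower by a log2 difference of -0.75 in ORMES-9 than in rPESC-2, and NUBPL was called higher in rPESC-2 (mean 5.00) than in ORMES-22, whose mean of 4.21 was under background. TIMMDC1, an assembly factor of the membrane arm of complex I, was 0.45 higher in ORMES-9 than in rPESC-2.

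Among 13 measured regulators of respiratory genes and of mitochondrial DNA, 4 (30.8%) were higher and 8 (61.5%) lower in fibroblasts, against 25.5% and 44.9% of all genes. The mitochondrial DNA helicase TWNK was lower by a log2 difference of -1.84, the coactivator PPRC1 by -1.83 and TFAM, which packages and transcribes mitochondrial DNA, by -1.37. TFAM had 9.30, 9.39 and 9.20 in fibroblasts and between 10.21 and 10.89 over the ES arrays. GABPA, a subunit of GA-binding protein, which activates respiratory genes, was 0.97 higher. TOP1MT, the mitochondrial topoisomerase, had 7.77, 7.87 and 7.56 in ORMES-9, 6.51, 6.47 and 6.41 in rPESC-2 and 8.07, 7.97 and 7.64 in ORMES-22. Its rPESC-2 values were below all others, and it was the only 1 of the 13 called in rPESC-2 against ORMES-22 (log2 difference -1.43). In ORMES-9 against ORMES-22 the calls were POLG, the mitochondrial DNA polymerase, at 0.54 and the coactivator PPARGC1B at -0.51. In ORMES-9 against rPESC-2, TOP1MT (1.27), PPARGC1A (mean 4.61 in ORMES-9, with rPESC-2 under background at 4.07) and POLG (0.32) were higher and GABPB1 (-0.49) was lower.

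Of 16 measured genes of the citric acid cycle and pyruvate entry, 6 (37.5%) were higher and 4 (25.0%) lower in fibroblasts, against 25.5% and 44.9% of all genes. On its brightest probe set CS, citrate synthase, had 5.37, 5.67 and 5.99 in fibroblasts, against 8.28 to 9.03 over the ES arrays. It was 7.76-fold lower in fibroblasts (log2 difference -2.96, SE 0.12), and any other probe sets were not compared. PDK1, the kinase that shuts pyruvate dehydrogenase, had a log2 difference of -2.38. DLD, a subunit shared by pyruvate and oxoglutarate dehydrogenases, and SUCLG1, of succinyl-CoA ligase, were higher by 1.74 and 1.46. Between ES lines the calls of this list were PDP1, a phosphatase acting on pyruvate dehydrogenase, at -0.96 in rPESC-2 against ORMES-22, and SUCLA2 at 0.51 in ORMES-9 against ORMES-22. Of 9 measured carriers and outer membrane proteins, 3 (33.3%) were higher and 3 (33.3%) lower in fibroblasts, and the ADP/ATP carriers split, with SLC25A4 at 0.92 and SLC25A5 at -0.43. TOMM20, an import receptor, had a log2 difference of -1.11 and PHB2, a prohibitin, of -0.78. SLC25A4 was also lower in both parthenogenetic lines than in ORMES-22, with log2 differences of -0.53 in ORMES-9 and -0.58 in rPESC-2, the only calls of that list between ES lines.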

How the data were processed

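RNA of 12 rhesus macaque samples was measured on Affymetrix arrays, with the letters A, B and C naming the biological replicates of each group. Per the submitters' processing notes, the deposited log2 values per probe set come from RMA; its version and software are not given in the sources used here, and the log2 scale was read from the values. RMA draws arrays toward a common distribution, so a change shared by most genes would be hidden. Per probe set, limma 3.58.1 in R 4.3.3 was fitted with 4 group means over 12 arrays (lmFit, eBayes), giving 8 residual and 3.69 prior degrees of freedom to each. Tests were two-sided, with p-values adjusted by Benjamini-Hochberg over all 52766 probe sets, after 99 control features were left out, and calls had an adjusted p under 0.05. The script was tested on simulated data.

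Names came from the platform annotation. Of the 64 symbols, 63 matched the RefSeq table of assembly T2T-MMU8v2.0 and ATP5G1 did not. Matching probe sets with several symbols, 12 in all, were left out, and no sequences were used here. Genes named with values were those called at 2-fold or more, the 3 largest calls of each complex per comparison, tissue isoforms, and the brightest and dimmest of each complex; of other lists, up to 4 calls per comparison. Further called genes are given to complete a count. Members and lists were chosen with earlier results of these data known, and the brightness limit of 8 after values were seen.

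The labels do not say what a shared letter stands for. Same-letter arrays of different groups had correlations of their deviations between -0.31 and 0.26, with 6 of 18 above 0.1, so letters were not taken to pair samples. Alternatives covered the samples fitted, the replicate block, dim probe sets, scaling, moderation, array weights, the probe set per gene, the members, the ES line compared and each array left out. No depth applies to arrays, and their number limits the precision: the median SD between replicates over the 64 genes was 0.11.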

Additional observations from a re-analysis of the deposited data

How the results depend on the processing

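The counts of called genes among the 64 are given for rPESC-2 against ORMES-22, ORMES-9 against ORMES-22, ORMES-9 against rPESC-2 and fibroblasts against ES lines, in that order; reported were 4, 6, 8 and 44. A 2-fold minimum left 1, 1, 0 and 7. A fit of only the groups compared left 2, 2, 10 and 44, and the mean of all probe sets of a gene gave 9, 6, 8 and 47. The probe set with the highest SD gave 8, 8, 8 and 50. With the letters as a replicate block the counts were 3, 6, 7 and 44; the letters are not known to pair samples. Leaving out 1 array at a time gave 3 to 8, 3 to 7, 5 to 12 and 41 to 46, the highest of each without ORMES-22 replicate A (in ORMES-9 against ORMES-22 also without ORMES-22 replicate C), and the lowest of both ORMES-9 comparisons without ORMES-9 replicate B. Quantile normalization gave 2 higher and 5 lower calls in ORMES-9 against ORMES-22, where 3 and 3 were reported. The other alternatives stayed within 1.5 times of the reported counts.

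UQCRB turned its sign in ORMES-9 against ORMES-22 with the mean of its probe sets (-0.20) and with the probe set of highest SD (-1.93), and in ORMES-9 against rPESC-2 with that probe set (-0.032). Against ORMES-9 alone, NDUFAF1 and UQCRB turned in fibroblasts (-0.094 and -0.017). The first 3 of these follow from the probe sets used and the last 2 from the ES line compared, by construction; the causes of other shifts were not tested. On the probe set of highest SD the ORMES-9 and rPESC-2 values of UQCRB were under background. The calls of NDUFAF1, COX7A1 and ATP5MJ between ES lines held under every alternative that kept the gene and set no fold minimum, although a second ATP5MJ probe set was not called. Levels near background carry less information, and no difference smaller than 0.36 (NDUFA12) was called between lines among the 64 genes.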
